A study of Mus musculus with 3 samples.

Results

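The genes described here are the DNA replication and S-phase genes, the machinery with which a cell copies its chromosomes. The members are the entries of the deposited single-cell count tables whose symbol is on a list of 41 such genes, and all 41 were found among the 27999 entries of the tables. The data are RNA counts of single GFP-positive cells from 3 mouse brain tumours, numbered 1, 2 and 4 as in the labels. All 3 share a genotype, H3f3a K27M with Pdgfra D842V and Trp53 R270H. The hosts were heterozygous for the reporter allele Gt(ROSA)26Sortm4(ACTB-tdTomato,-EGFP), in the Luo/J stock on a B6.129(Cg) background, whose cells turn from tdTomato to EGFP upon recombination. The mice were 150, 106 and 149 days old for tumours 1, 2 and 4. The constructs were inserted by MADR, a method that places a transgene at a chosen locus, through electroporation of the newborn brain, and only sorted GFP-positive cells were profiled. Each tumour is 1 library, every tumour carries all 3 alterations, and no control tissue is among the samples analysed here, so the comparisons are between cells within tumours.

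Before a cell copies its DNA, the origin recognition complex together with Cdc6 and Cdt1 loads the ring-shaped Mcm helicase onto origins, a step called licensing. Cyclin E with its kinase and the transcription factor E2f1 then carry the cell into S phase. Mcm10, Cdc45 and the GINS complex turn the helicase on, the Rfc complex loads the sliding clamp Pcna, the polymerases copy the strands, and the nucleotide enzymes Rrm1, Rrm2, Tyms, Tk1 and Dut keep the building blocks in supply. In gliomas with the histone alteration K27M, cells resembling oligodendrocyte progenitors are known as the main dividing population.

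After filtering, 3361, 1548 and 4377 cells remained in tumours 1, 2 and 4, with median depths per cell of 11939, 7783 and 9494 unique molecular identifiers (UMIs, single counted RNA molecules). Clusters made without the 41 members and other cycling genes were named from marker genes. Progenitor-like cells numbered 2077, 151 and 3610, and myeloid-like cells 170, 397 and 80. Oligodendrocyte-like cells were named in tumour 2 (449 cells) and tumour 4 (154 cells), and astrocyte-like cells only in tumour 1 (31 cells). A further 1083, 200 and 519 cells stayed unnamed. Levels are CPM, the counts of a gene over all cells of a class scaled to a fixed total of UMIs, so more positive cells and more RNA per cell cannot be told apart in a level. Some progenitor-like clusters were still led by cycling genes outside the lists left out, such as Foxm1. The libraries shared 6 to 20 cell barcodes per pair.

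The first question was how the replication genes stood in progenitor-like cells sorted by other cycling genes. Cells were placed in states by 2 other gene lists, neither of which holds a member. The lists are not independent of the members, since the S-phase list holds partner genes such as Prim2, Pola2 and Rfc1. Choosing cells that lack both lists therefore favours low levels of the members, and the part of this choice was not tested. With each cell thinned to 2500 UMIs, S-state cells had at least 3 UMIs of 56 other S-phase genes and at most 1 UMI of 60 mitotic genes. Mitotic-state cells had at least 5 mitotic UMIs, and non-cycling cells had 0 UMIs of both lists. The mitotic state set no upper limit on UMIs of the S-phase list, so its cells need not be in mitosis and may include S-phase cells. The S state held 122 cells in tumour 1 and 273 in tumour 4, the mitotic state 898 and 1013, and the non-cycling state 58 and 286. Tumour 2 had 12 S-state, 36 mitotic-state and 12 non-cycling cells, under the minimum of 30 for a sum in the first and last of these states, so each comparison of states rests on tumours 1 and 4.

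Nearly the whole replication machinery was higher in S-state than in non-cycling cells, and all of the tested part was higher in mitotic-state than in non-cycling cells. The states were drawn with other cycling genes, so the choice of cells itself favours this direction. The summed level of the 41 genes was 1505 CPM in S-state and 2471 CPM in mitotic-state cells of tumour 1, against 516 CPM in its non-cycling cells. In tumour 4 it was 1403 CPM in S-state and 2295 CPM in mitotic-state cells, against 434 CPM in non-cycling cells. The few cells of tumour 2 gave 724, 1482 and 293 CPM in its S-state, mitotic-state and non-cycling cells. In each of the 3 tumours the mitotic state was thus highest and the non-cycling state lowest.

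By edgeR's quasi-likelihood test with Benjamini-Hochberg adjustment over all genes, 37 of the 40 members tested were higher in S-state than in non-cycling cells and 0 were lower. Of all 12274 genes tested, 0.815% were called higher and 0.139% lower. The median log2 fold change of the members was 1.91, beside 0.01 over all genes. Cdc45 (1.07), Gins1 (1.01) and Pola1, the catalytic subunit of polymerase alpha (1.14), were the 3 members whose fold change did not pass, with adjusted p of 0.485, 0.499 and 0.198. Orc1, a subunit of the origin recognition complex, was below the count filter. DESeq2 called 24 members higher and 0.253% of all genes, with a median log2 fold change of 1.90. States taken in all cells outside immune and vascular clusters gave 4 calls of 41 members and 0.0386% of all genes, with a median of 1.63.

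The largest differences between S-state and non-cycling cells belonged to genes that were nearly silent in non-cycling cells. Mcm10 had 10.4 and 5.65 CPM in S-state cells of tumours 1 and 4, against 1 UMI (1.60 CPM) and 0 UMIs (limit of 3 counts, 0.866 CPM) in non-cycling cells. The checkpoint adaptor Clspn had 14.7 and 12.9 CPM in S-state cells, against 3.21 and 0.289 CPM in non-cycling cells. Their log2 fold changes were 4.70 (SE 0.87, adjusted p = 0.00145 in edgeR) and 4.11 (SE 0.57, adjusted p = 1.9e-05), each on a handful of UMIs in the lower state.

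Cdc6, which loads the helicase, had 10.4 and 11.0 CPM in S-state cells of tumours 1 and 4, against 0 UMIs (limit of 3 counts, 4.81 CPM) and 0.866 CPM in non-cycling cells. The difference was 3.73 on the log2 scale (SE 0.61, adjusted p = 0.000263 in edgeR). E2f1 had 28.2 and 19.8 CPM in S-state cells, against 4.81 and 1.73 CPM in non-cycling cells, a log2 fold change of 3.23 (SE 0.38). For both genes each S-state value lay above both non-cycling values. At the other end stood Mcm7, a subunit of the helicase, and the clamp loader subunits Rfc2 and Rfc3. Mcm7 had 51.6 and 55.3 CPM in S-state cells against 35.3 and 30.02 CPM in non-cycling cells (log2 fold change 0.72, SE 0.17, adjusted p = 0.0290 in edgeR). Rfc2 and Rfc3 had log2 fold changes of 0.89 and 0.92, and Rfc2 kept 38.5 and 38.7 CPM in non-cycling cells.

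By role, all 9 tested licensing genes, all 5 of the clamp and loader, all 5 of nucleotide supply, all 7 of the checkpoint and chromatin group and all 3 of the cyclin E and E2f1 group were called higher in S-state than in non-cycling cells. Of the 7 synthesis genes 6 were called, and of the 4 helicase activation genes 2. The median log2 fold change was 3.23 in the cyclin E and E2f1 group and 1.24 in the clamp and loader. In tumours 1 and 4 Ccne1 stood at 16.6 and 26.7 CPM in S-state cells, against 4.81 and 6.93 CPM in non-cycling cells. Ccne2 stood at 4.30 and 9.74 CPM in S-state cells, against 0 and 0.866 CPM in non-cycling cells. The limit of 3 counts for that 0 is 4.81 CPM, above the S-state value of 4.30 CPM. Tumour 1 therefore does not separate the 2 states for Ccne2.

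Between mitotic-state and non-cycling cells, 40 of 40 tested members were called higher, with a median log2 fold change of 2.66. Among all genes 8.84% were called higher and 7.1% lower. Rrm2, the regulated subunit of ribonucleotide reductase, had 166 and 173 CPM in mitotic-state cells of tumours 1 and 4, against 11.2 and 7.50 CPM in non-cycling cells (log2 fold change 4.34, SE 0.18). Mcm10 (6.02) and Clspn (5.04) had the largest log2 fold changes, and Rfc3 (1.24), Orc6 (1.32) and Rfc2 (1.37) the smallest. Mitotic-state cells also had more UMIs, with medians of 14695 and 10900 per cell against 10634.5 and 10056.5 in non-cycling cells, and the part of depth in these values was not tested beyond scaling to CPM.

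The next question was how the members stood in S-state cells relative to mitotic-state cells. With the limits above, 0 of 40 members were called higher in the S state by edgeR (0 also at an unadjusted p under 0.05) and 24 were called lower, with a median log2 fold change of −0.60. Among all genes 4.1% were called higher and 5.74% lower. This direction depended on how strictly the states were drawn. With looser limits of 2 UMIs of the other S-phase genes and 3 mitotic UMIs, 0 members were called higher and 36 lower (5.08% and 7.27% of all genes), with a median of −0.84. With at least 5 UMIs of the other S-phase genes and at least 10 mitotic UMIs, which leaves 37 and 51 S-state cells in tumours 1 and 4, 6 members were called higher and 3 lower (1.04% and 1.98% of all genes), and the median was 0.19. Of the 40 members, 25 then had a positive log2 fold change, 22 of them with a negative one at the first limits. The summed level was then 2120 CPM in S-state against 2534 CPM in mitotic-state cells of tumour 1, and 2918 against 2403 CPM in tumour 4. At the first limits DESeq2 called 8 members lower, and 1.39% of all genes.

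Tk1 and Rrm2 were called lower in the S state at both limits. Tk1, the thymidine kinase of the salvage pathway, had 14.7 and 15.7 CPM in S-state cells of tumours 1 and 4, against 72.6 and 77.1 CPM in mitotic-state cells. Rrm2 had 39.3 and 41.1 CPM in S-state cells, against 166 and 173 CPM in mitotic-state cells. Their log2 fold changes were −2.27 (SE 0.16, adjusted p = 1.24e-12 in edgeR) and −2.05 (SE 0.12), and −1.35 and −0.93 at the stricter limits. In each tumour the S-state value of both genes lay below the mitotic-state value.

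Cdc45, which joins the helicase when it is switched on, had 9.21 and 5.34 CPM in S-state cells and 26.6 and 21.8 CPM in mitotic-state cells (log2 fold change −1.78, SE 0.24, adjusted p = 1.24e-06 in edgeR; −0.62 and not called at the stricter limits). All 5 nucleotide supply genes were called lower in the S state at the first limits, with Tyms at −1.21, Rrm1 at −1.28 and Dut at −0.72. At the stricter limits these 3 stood at −0.47, −0.71 and 0.02 with no call. Also called lower at the first limits were 3 of 4 helicase activation genes and 4 of 5 of the clamp and loader. So were 4 of 7 synthesis genes, 5 of 7 of the checkpoint and chromatin group and 3 of 9 licensing genes. Those licensing genes were Mcm5 (−0.44), Mcm7 (−0.68) and Orc6 (−0.37). None of the 3 cyclin E and E2f1 genes was called. Among the loader group, Pcna had 78.6 and 56.5 CPM in S-state and 125 and 106 CPM in mitotic-state cells (log2 fold change −0.78, SE 0.12). At the stricter limits Pcna stood at 0.17 with no call.

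Cdc6, Mcm4 and Mcm6, all licensing genes, had log2 fold changes of 0.40, 0.13 and 0.10 between S-state and mitotic-state cells at the first limits, and none of the 3 was called. Mcm6 had 64.4 and 59.0 CPM in S-state cells of tumours 1 and 4, and 61.5 and 55.9 CPM in mitotic-state cells. Cdc6 had 10.4 and 11.0 CPM in S-state cells, and 10.1 and 7.19 CPM in mitotic-state cells. For both genes the values of the 2 states lay close together in tumour 1.

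The calls in favour of the S state came at the stricter limits. There Cdc6 was higher in S-state than in mitotic-state cells by 1.80 on the log2 scale (SE 0.38, adjusted p = 0.00261 in edgeR), with 24.9 CPM in S-state cells of each tumour against 8.96 and 5.67 CPM in mitotic-state cells. E2f1 was higher by 1.16 (SE 0.25), with 46.0 and 51.4 CPM in S-state against 24.6 and 19.8 CPM in mitotic-state cells. Hells, a chromatin remodelling helicase, was higher by 0.88, and Mcm3, Mcm6 and Gins2 by 0.83, 0.78 and 0.75. The third member called lower, beside Tk1 and Rrm2, was the clamp loader subunit Rfc4 at −0.83.

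Ordered by the mean log2 ratio of S-state over mitotic-state CPM in tumours 1 and 4, with 1 CPM added, the members ran from Cdc6 (0.29) to Tk1 (−2.23). At the first limits 3 members were higher in the S state in both tumours and 35 were lower in both. At the stricter limits 12 were higher in both and 11 lower in both. The median rank was 7 for the cyclin E and E2f1 group and 10.5 for licensing, against 33.5 for helicase activation and 37 for nucleotide supply. At the stricter limits those median ranks were 7, 15, 30 and 39. E2f1, at place 4, and Hells, at place 6, stood at places 2 and 3 at the stricter limits, and Tk1 and Rrm2 were the last 2 at both.

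**Figure D1:**
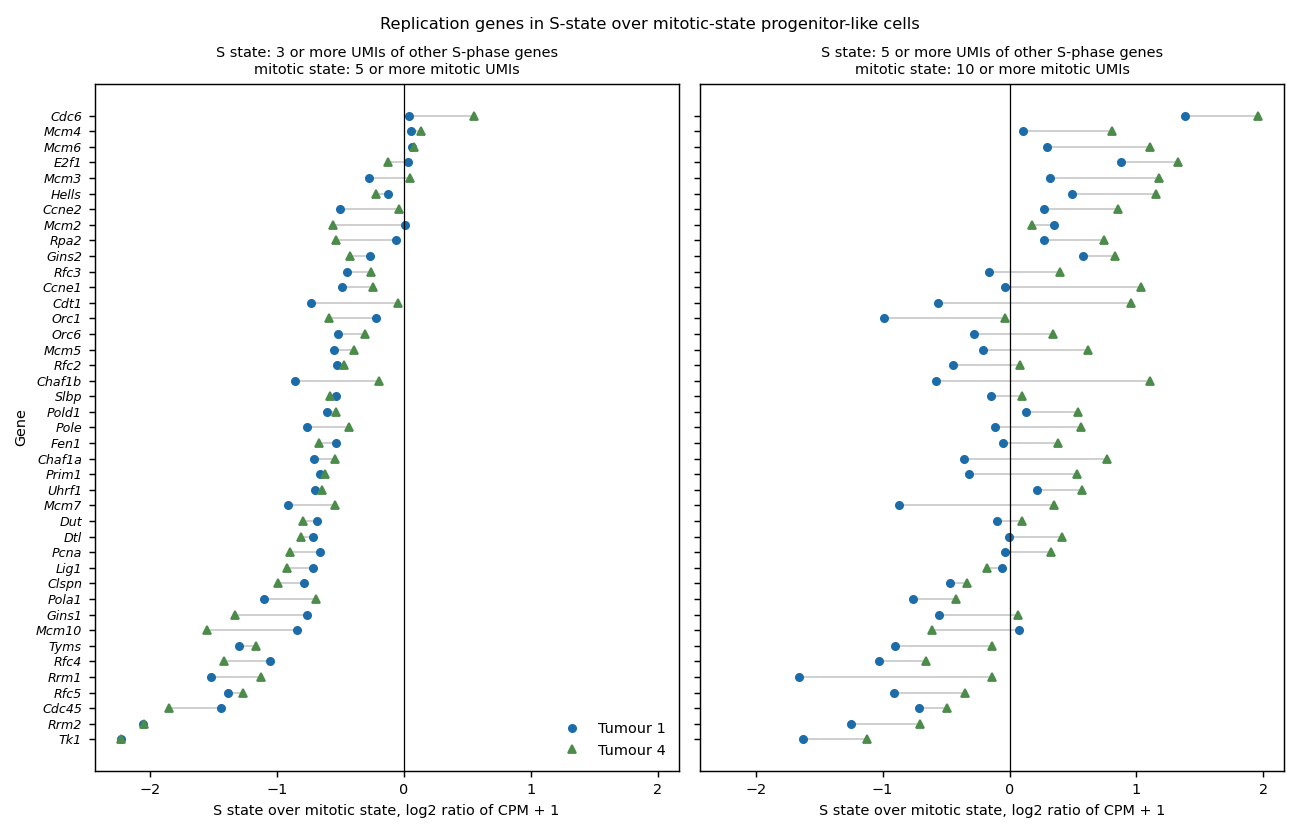
Log2 ratio of S-state over mitotic-state level (CPM with 1 added) for the 41 genes in progenitor-like cells of tumour 1 (circles) and tumour 4 (triangles), at the first limits (left) and the stricter limits (right), genes in the order of the left panel. Most points lie left of 0 at the first limits and 12 genes lie right of 0 in both tumours at the stricter ones, while Tk1 and Rrm2 stay at the bottom left in both panels.

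Cutting the progenitor-like cells by mitotic UMIs alone, with no reference to S-phase genes, gave a graded picture. The summed level of the 41 genes in tumour 1 was 811, 898, 1168, 2281 and 2534 CPM in cells with 0, 1, 2 to 4, 5 to 9 and 10 or more mitotic UMIs. In tumour 4 it was 613, 688, 1084, 2020 and 2403 CPM. In tumour 2 it was 344, 649, 699, 1634 and 1432 CPM, the 5 to 9 bin there holding only 9 cells. Slbp alone gave 718 CPM of that bin. The sum thus climbed through all bins in tumours 1 and 4 and through the first 4 in tumour 2.

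Members parted at the top of this scale. In both tumours 1 and 4, 26 of the 41 were higher in cells with 10 or more mitotic UMIs than in cells with 5 to 9, and 8 were lower in both: Ccne1, Ccne2, Cdc6, Chaf1b, E2f1, Hells, Mcm4 and Mcm6. Some of these were nearly level between the 2 bins. Mcm4 stood at 0.976 and 0.998 of its level in the lower bin, and Hells at 0.978 and 0.963. Mcm2, among the 26, stood at 1.05 and 1.01. Rrm2 was 12.2-fold higher in the top bin than in the bin of 0 in tumour 1, and 15.7-fold higher in tumour 4. Tk1 was 11.4-fold and 14.4-fold higher. Cdc6 was 2.58-fold and 2.67-fold higher over the same bins, and E2f1 2.28-fold and 3.84-fold. Between 5 to 9 and 10 or more mitotic UMIs, Rrm2 was 1.39-fold and 1.80-fold higher in the top bin, while Cdc6 stood at 0.657 and 0.511 of its level and E2f1 at 0.683 and 0.755. These are ratios of summed counts within a library, with no test.

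**Figure D2:**
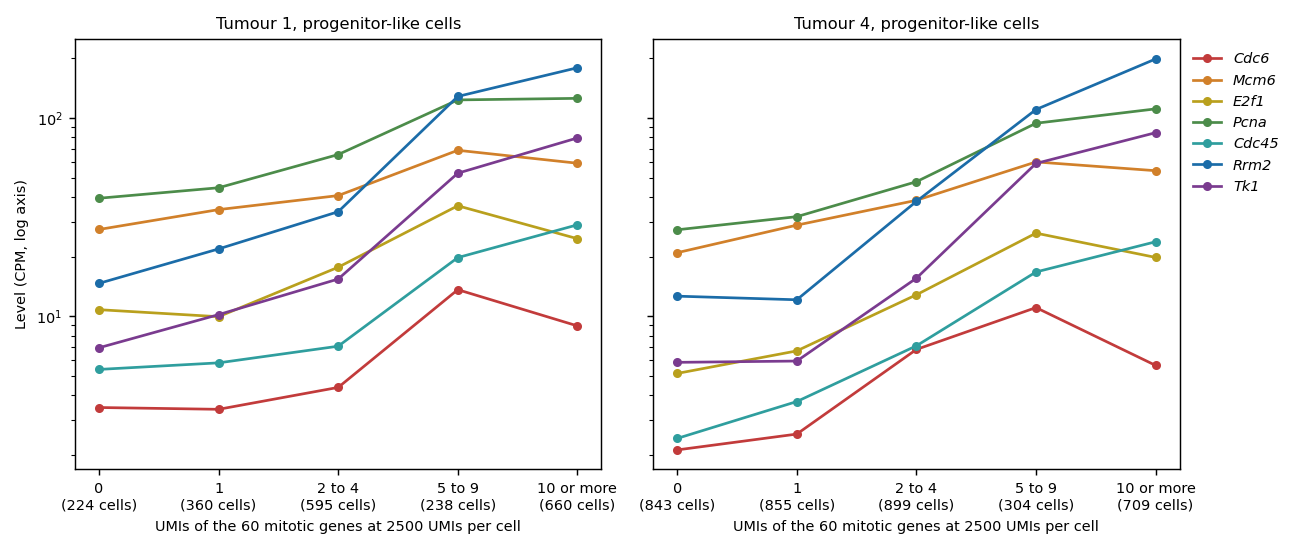
Level (CPM, log axis) of 7 members in progenitor-like cells grouped by UMIs of the 60 mitotic genes at 2500 UMIs per cell, for tumour 1 (left) and tumour 4 (right). Rrm2, Tk1 and Cdc45 go on climbing into the group of 10 or more mitotic UMIs, Pcna is nearly level there in tumour 1, and Cdc6, Mcm6 and E2f1 peak in the group of 5 to 9.

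The start regions of the members at the ends of the order are shown so that their letters can be set beside their place in it. E2F sites are bound by E2F factors such as E2f1 itself, and the CHR element is known from promoters of mitotic genes. Of the 6 members at the ends, 5 had a promoter entry in RefSeq (build GRCm38.p6), and the stretch shown for each is the longest part of the 250 bases before the RefSeq start that lies outside annotated GENCODE exons. Capitals mark E2F elements (in Cdc6 and Mcm6) and the CHR element (in Cdc45), and the remaining 2 stretches hold neither. All are written 5′ to 3′ on the strand of the gene.
Cdc6, chr11:98907982-98908150, plus strand: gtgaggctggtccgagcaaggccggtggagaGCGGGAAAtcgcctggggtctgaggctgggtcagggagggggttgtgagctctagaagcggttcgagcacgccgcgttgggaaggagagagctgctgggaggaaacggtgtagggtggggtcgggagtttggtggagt
Mcm6, chr1:128359706-128359955, minus strand: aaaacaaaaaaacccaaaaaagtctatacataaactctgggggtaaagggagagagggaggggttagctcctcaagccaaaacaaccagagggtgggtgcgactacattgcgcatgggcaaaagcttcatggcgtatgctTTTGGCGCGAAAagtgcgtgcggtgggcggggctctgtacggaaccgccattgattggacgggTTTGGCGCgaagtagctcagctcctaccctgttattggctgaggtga
Cdc45, chr16:18812079-18812222, minus strand: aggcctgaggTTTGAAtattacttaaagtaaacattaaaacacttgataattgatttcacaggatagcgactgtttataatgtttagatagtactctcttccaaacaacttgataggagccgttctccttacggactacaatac
Rrm2, chr12:24708004-24708240, plus strand: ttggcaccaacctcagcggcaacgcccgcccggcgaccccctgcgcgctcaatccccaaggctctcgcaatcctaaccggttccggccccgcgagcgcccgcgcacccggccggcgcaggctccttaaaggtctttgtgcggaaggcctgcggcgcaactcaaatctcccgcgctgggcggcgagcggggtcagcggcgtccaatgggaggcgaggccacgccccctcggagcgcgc
Tk1, chr11:117826093-117826264, minus strand: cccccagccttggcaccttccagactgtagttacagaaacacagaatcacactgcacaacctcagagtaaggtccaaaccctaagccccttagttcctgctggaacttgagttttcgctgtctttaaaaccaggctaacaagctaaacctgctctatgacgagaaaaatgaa

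By the annotation, the Cdc6 stretch lies within the Cdc6 gene outside its exons, the Cdc45 stretch within the gene Ufd1 and the Tk1 stretch within Afmid and Gm20708. Those of Mcm6 and Rrm2 lie between genes. Counted back from −1 at the last base before the RefSeq start, the Cdc6 element begins at −138, and the Mcm6 elements begin at −110, −106 and −47, the first 2 sharing 4 bases. The Cdc45 element begins at −240, and a second lies after the start, at 11. Mcm4, at place 2, has no entry.

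Over the whole list, 35 of the 41 members had a promoter entry, and windows of 250 bases before to 50 after the start were searched on both strands for the E2F letters TTTGGCGC, TTTCGCGC, TTTCCCGC and TTTGCCGC and the CHR letters TTTGAA. An E2F element was found in 15 of the 35 (42.9%), against 2 of 49 mitotic genes (4.08%), 9 of 41 other S-phase genes (22.0%) and 704 of all 27025 genes (2.61%). The CHR letters were found in 3 of the 35 members (8.57%), namely Mcm2, Cdc45 and Fen1, against 34 of 49 mitotic genes (69.4%), 9 of 41 other S-phase genes (22.0%) and 5466 of all genes (20.2%). Along the order, 9 of the 16 members with an entry among the first 20 places held an E2F element, and 6 of 19 among the last 21. A match describes the letters and shows no binding.

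**Figure D3:**
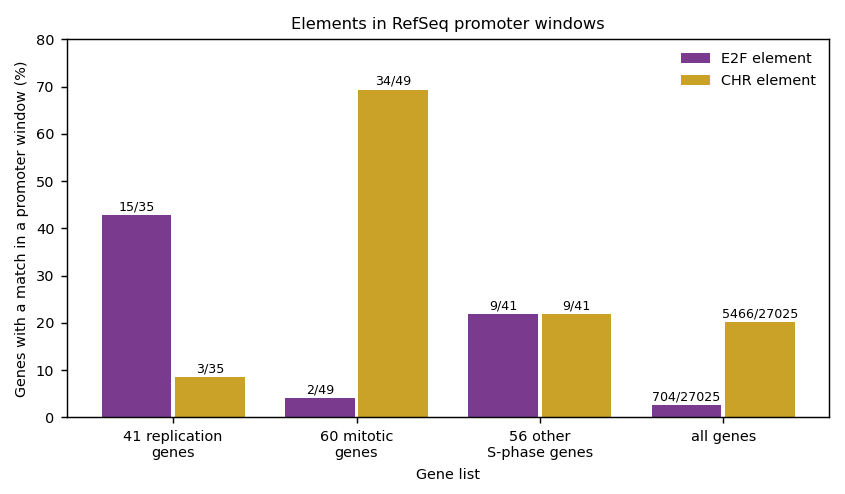
Share of genes (%) with a match to the E2F letters (purple) or the CHR letters (yellow) in a RefSeq promoter window, for the members, the mitotic genes, the other S-phase genes and all genes, with the numbers of genes above the bars. E2F letters are most frequent among the members and CHR letters among the mitotic genes.

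Levels in progenitor-like cells differed between tumours in the same direction for most members. Tumour 1 exceeded tumour 4 for 38 of the 41 genes, with a median log2 ratio of 0.49, and exceeded tumour 2 for 37, with a median of 1.29. Each tumour is 1 library, so these are values with no test. Among mitotic-state cells alone, 27 members were higher in tumour 1 than in tumour 4 and 14 lower, with a median of 0.14. The mitotic state held 43.2%, 23.8% and 28.1% of progenitor-like cells in tumours 1, 2 and 4, and its part in the difference between tumours was not tested further.

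In licensing, Mcm2 stood at 45.7, 18.2 and 32.3 CPM in progenitor-like cells of tumours 1, 2 and 4 (32.1 ± 13.8, SD, n = 3). Mcm5 stood at 42.4, 14.4 and 28.0 CPM (28.3 ± 14.0), and Cdt1, which loads the helicase with Cdc6, at 27.9, 6.70 and 19.8 CPM (18.1 ± 10.7). All 3 had the same order of tumours. Cdc6 stood at 7.15 and 4.94 CPM in tumours 1 and 4, and no UMI was counted in the 151 cells of tumour 2 (limit of 3 counts, 2.87 CPM). Orc1 stood at 0.663, 2.87 and 0.646 CPM, so its highest value was in the smallest sample.

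Of the clamp and nucleotide genes, Pcna stood at 91.0, 50.7 and 58.2 CPM in tumours 1, 2 and 4 (66.6 ± 21.4, SD, n = 3) and Rrm2 at 99.2, 35.4 and 69.6 CPM (68.1 ± 31.9). Tyms, thymidylate synthase, stood at 66.0, 13.4 and 40.0 CPM, and Tk1 at 43.6, 10.5 and 30.8 CPM. Tumour 1 was highest and tumour 2 lowest for each of these 4. Pcna and Tyms have annotated pseudogene copies (Pcna-ps1, Pcna-ps2 and Tyms-ps), so reads may be shared with them and their counts are uncertain.

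Among the checkpoint and chromatin genes, Clspn stood at 16.8, 7.65 and 12.4 CPM and Hells at 49.4, 11.5 and 32.7 CPM in tumours 1, 2 and 4. Uhrf1, needed to copy DNA methylation, stood at 34.4, 30.6 and 28.2 CPM and varied least, 1.22-fold from the lowest to the highest tumour. Slbp, which binds the stem-loop of histone messages, stood at 91.1, 112 and 85.1 CPM (96.1 ± 14.1, SD, n = 3). Its value in tumour 2 leans on few cells. There 51 UMIs came from the 9 cells with 5 to 9 mitotic UMIs, at 718 CPM, against 43.8 to 98.0 CPM in the other bins. Slbp, Orc1 and Ccne2 had their highest value in tumour 2, and they were not the only members to depart from the common order. In all, 6 of the 41 members were higher in tumour 2 than in tumour 4, and 3 were lower in tumour 1 than in tumour 4. The widest spread with a count in every tumour was in Pole, the leading-strand polymerase, at 14.9-fold, followed by the histone chaperone subunit Chaf1a at 9.99-fold. Pole rested on 1 UMI in tumour 2.

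Of the S-phase entry genes, Ccne1 stood at 17.7, 13.4 and 19.9 CPM (17.0 ± 3.33, SD, n = 3), Ccne2 at 4.57, 9.57 and 6.21 CPM (6.78 ± 2.55), and E2f1 at 21.1, 8.61 and 12.6 CPM (14.1 ± 6.37) in progenitor-like cells of tumours 1, 2 and 4. Both cyclin E genes thus had a higher value in tumour 4 than in tumour 1, and E2f1 a lower one. At 2500 UMIs per cell, single members were seen in few cells: Dut, which clears dUTP, had a UMI in 20.6% ± 9.62 (SD, n = 3) of progenitor-like cells, Pcna in 12.9% ± 3.47, Rrm2 in 9.99% ± 5.08 and Cdc6 in 0.894% ± 0.847.

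**Figure D4:**
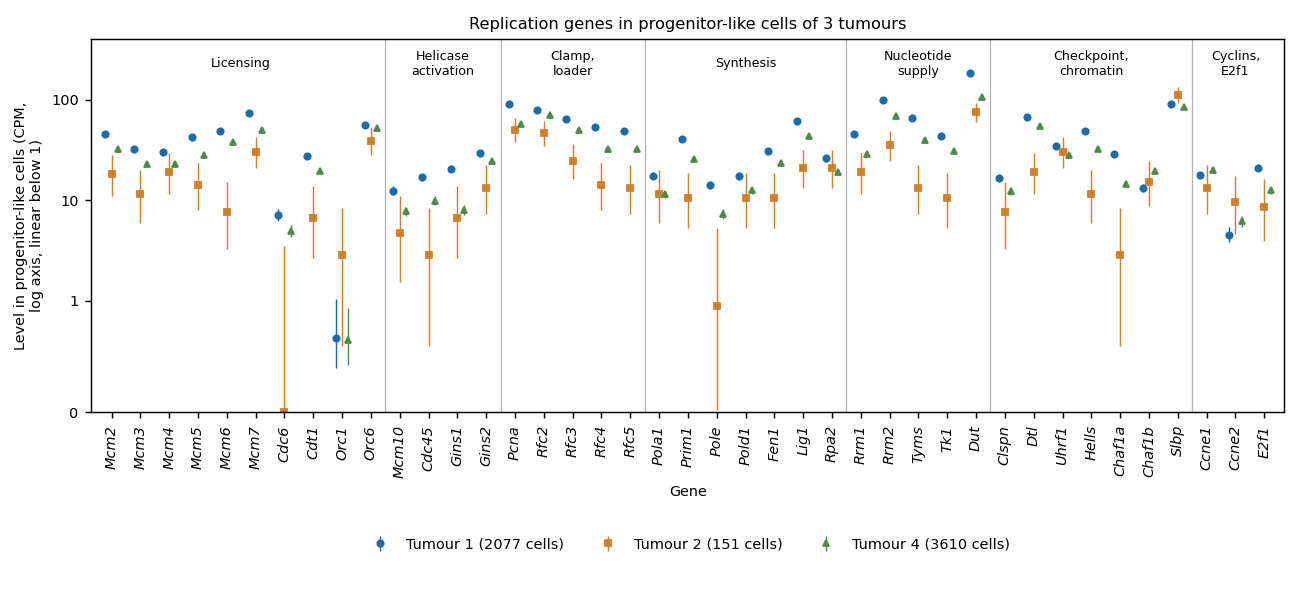
Level (CPM, log axis, linear below 1) of each of the 41 genes in progenitor-like cells of tumour 1 (circles, 2077 cells), tumour 2 (squares, 151 cells) and tumour 4 (triangles, 3610 cells), grouped by role, with exact 95% Poisson intervals that cover counting error only. Tumour 1 lies above tumour 4 for 38 genes, and the intervals of tumour 2 are the widest.

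Set against myeloid-like cells of the same tumour, replication genes were higher in progenitor-like cells for nearly all members, by amounts that mostly did not pass the test. The summed level in progenitor-like against myeloid-like cells was 1774 against 1056 CPM in tumour 1, 799 against 255 CPM in tumour 2 and 1275 against 808 CPM in tumour 4. By CPM, progenitor-like cells had the higher value for 38, 38 and 39 of the 41 members in the 3 tumours. These directions depend on the scaling: under the TMM scaling of the fit, 6 members had a negative log2 fold change, among them E2f1 and Rfc2, which were higher by CPM in each tumour. By CPM, those that were not higher were Mcm3, Orc1 and Ccne2 in tumour 1, Cdc6 (0 UMIs in both classes), Gins1 and Pole in tumour 2, and Pole and Pold1, the catalytic subunit of polymerase delta, in tumour 4.

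By edgeR, 2 of the 41 were called higher and 0 lower over the 3 pairs, and 9 were higher at an unadjusted p under 0.05. Among all genes 1.06% were called higher and 10% lower, and the median log2 fold change was 0.54 for the members and 0.10 for all genes. Prim1, the primase that starts each new strand, had 40.5, 10.5 and 25.8 CPM in progenitor-like cells of tumours 1, 2 and 4, against 18.7, 2.03 and 6.63 CPM in myeloid-like cells (log2 fold change 1.22, SE 0.31, adjusted p = 0.0376 in edgeR). Dut had 186, 75.6 and 108 CPM in progenitor-like cells, against 85.5, 9.49 and 57.4 CPM in myeloid-like cells (1.11, SE 0.30, adjusted p = 0.0493). In each tumour both genes were higher in progenitor-like cells.

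These 2 calls are not firm. DESeq2 called 1 member higher (1.91% of all genes). Leaving out tumour 1, 2 or 4 gave 0, 6 or 1 calls, beside 98 of 13651, 524 of 13721 and 82 of 13367 genes. With tumour 2 left out, the calls over all genes thus rose along with those of the members. Clustering at a lower or a higher resolution gave 0, beside 36 of 14137 and 74 of 14216 genes. The largest log2 fold changes were those of Cdc6 (1.61), Rrm2 (1.4998) and Ccne1 (1.37), with adjusted p of 0.2496, 0.121 and 0.130, and the smallest those of Pole (−0.34), Mcm3 (−0.29) and E2f1 (−0.26). Rrm2 had 99.2, 35.4 and 69.6 CPM in progenitor-like cells of tumours 1, 2 and 4, against 37.0, 1.02 and 32.0 CPM in myeloid-like cells. Of the 60 mitotic genes, 12 were called higher in the same comparison and 0 lower, with a median log2 fold change of 1.38. Of the 56 other S-phase genes 0 were called, with a median of 0.50.

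RNA of progenitor markers was found in myeloid-like cells too, at a far lower level in tumour 2 than in tumours 1 and 4. All 14 progenitor markers were detected in myeloid-like cells of every tumour, and their summed level was 1673, 144 and 1666 CPM there, against 2821, 3958 and 3406 CPM in progenitor-like cells of tumours 1, 2 and 4. The 18 myeloid markers summed to 254, 1211 and 128 CPM in progenitor-like cells, against 19629.6, 39621 and 25985.5 CPM in myeloid-like cells. Tumour 2, with the lowest progenitor-marker level in its myeloid-like cells, also had the lowest replication sum there, 255 CPM, and the part of progenitor RNA in the other 2 was not tested.

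Set against oligodendrocyte-like cells, most members were again higher in progenitor-like cells, and none passed the test over 2 tumours. The summed level in progenitor-like against oligodendrocyte-like cells was 799 against 660.0 CPM in tumour 2 and 1275 against 799 CPM in tumour 4, and 35 and 37 members were higher. edgeR called 0 of 41 higher and 0 lower, 11 were higher at an unadjusted p under 0.05, and DESeq2 called 1 (0.827% of all genes). Among all genes 0.217% were called higher and 2.83% lower, and the median log2 fold change was 0.63 for the members and 0.02 for all genes.

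Mcm5 came nearest, with 14.4 and 28.0 CPM in progenitor-like cells of tumours 2 and 4, against 3.30 and 10.2 CPM in oligodendrocyte-like cells (log2 fold change 1.76, SE 0.40, adjusted p = 0.0574 in edgeR). It passed the test with DESeq2, and in edgeR with tumour 2 left out, which leaves 1 pair and the spread of the other classes. Orc1 (1.92) and Uhrf1 (1.42) completed the largest 3, and Ccne2 (−0.34), Fen1 (−0.24), which trims Okazaki flaps, and Rfc2 (−0.20) were the smallest. Uhrf1 had 30.6 and 28.2 CPM in progenitor-like cells, against 5.28 and 16.7 CPM in oligodendrocyte-like cells.

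A few members went the other way in tumour 2. Pcna had 50.7 and 58.2 CPM in progenitor-like cells of tumours 2 and 4, against 92.6 and 43.6 CPM in oligodendrocyte-like cells. Slbp had 112 and 85.1 CPM in progenitor-like cells, against 142 and 46.3 CPM in oligodendrocyte-like cells. In tumour 2 both were lower in progenitor-like cells and in tumour 4 both were higher. In that comparison 3 of the 60 mitotic genes were called higher and 1 lower (median log2 fold change 1.45), and 0 of the 56 other S-phase genes (median 0.54). Progenitor markers summed to 3958 and 3406 CPM in progenitor-like cells of tumours 2 and 4, against 1226 and 2640 CPM in oligodendrocyte-like cells, and the 14 oligodendrocyte markers to 5904 and 3067 CPM against 69953 and 22743 CPM. The part of either in the replication levels was not tested.

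Astrocyte-like cells could be compared only in tumour 1, without a test. There all 41 members were higher in progenitor-like cells, with a summed level of 1774 against 667 CPM in the 31 astrocyte-like cells. Rrm2 had 99.2 CPM in progenitor-like against 30.7 CPM in astrocyte-like cells, Mcm6 49.4 against 16.8 CPM, and Tk1 43.6 against 2.79 CPM. The Tk1 value in astrocyte-like cells rested on 1 UMI. The 13 astrocyte markers summed to 442 CPM in progenitor-like and 6973 CPM in astrocyte-like cells, and 5 members had no UMI in astrocyte-like cells: Chaf1b, Ccne2, Fen1, Orc1 and Pole. The 60 mitotic genes summed to 4125 CPM in progenitor-like and 3178 CPM in astrocyte-like cells, a smaller gap than that of the 41 members.

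The last question was how many cells of each class had the programme on at equal depth. A cell was counted as positive with at least 5 UMIs of the 41 genes after thinning to 2500 UMIs. By that limit 32.4% of progenitor-like cells were positive in tumour 1 (exact binomial 95% interval 30.3 to 34.4, counting error only), 9.27% in tumour 2 (5.16 to 15.1) and 21.4% in tumour 4 (20.1 to 22.8), or 21.0% ± 11.5 (SD, n = 3). In myeloid-like cells the shares were 12.4% (7.81 to 18.3), 0.756% (0.156 to 2.19) and 10.0% (4.42 to 18.8). In each tumour the share was higher in progenitor-like than in myeloid-like cells. The intervals take the cells of a library as independent and cover no spread between tumours, so they do not test the classes.

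Oligodendrocyte-like cells were positive in 6.46% (4.37 to 9.14) in tumour 2 and 7.14% (3.62 to 12.4) in tumour 4, and 1 of 31 astrocyte-like cells (3.23%, 0.0816 to 16.7) in tumour 1. At this limit the share in tumours 2 and 4 was higher in progenitor-like than in oligodendrocyte-like cells, again with no test. In tumour 2 the 2 intervals overlapped, and the order depended on the limit. There the shares in progenitor-like against oligodendrocyte-like cells were 21.2% against 17.1% at 3 or more UMIs. At 10 or more UMIs they were 1.32% against 2.00%. Median depths were 11523, 6006 and 9533 UMIs in progenitor-like, 13217, 7235 and 8854.5 in myeloid-like, and 11913 and 10435.5 in oligodendrocyte-like cells. Without thinning the shares were 81.5%, 29.8% and 63.6% in progenitor-like and 77.6%, 5.79% and 41.3% in myeloid-like cells. In oligodendrocyte-like cells of tumours 2 and 4 they were 49.2% and 48.1%, so in tumour 2 the progenitor-like share was then the lower one.

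**Figure D5:**
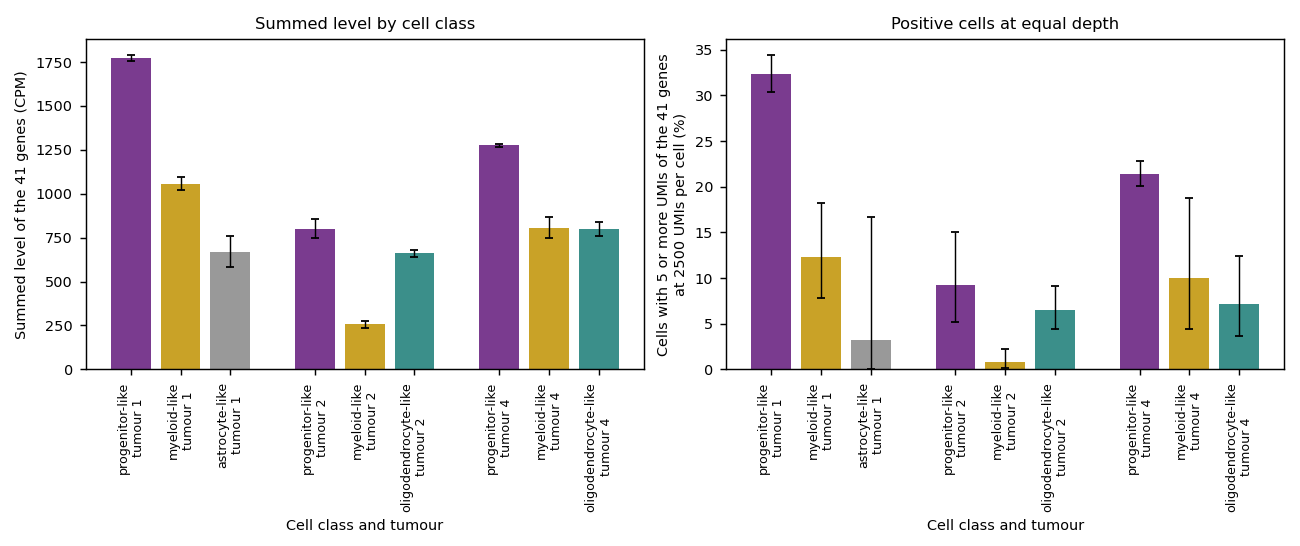
Summed level of the 41 genes (CPM, left, with exact 95% Poisson intervals) and share of cells with at least 5 of their UMIs at 2500 UMIs per cell (%, right, with exact 95% binomial intervals), by cell class and tumour. Of the classes shown, the progenitor-like bar is highest in each tumour in both panels.

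Most positive progenitor-like cells also passed the mitotic limit, which does not place them in mitosis. Among positive progenitor-like cells, 77.2%, 71.4% and 66.1% had at least 5 mitotic UMIs in tumours 1, 2 and 4. Of the progenitor-like cells that passed the mitotic limit, 57.8%, 27.8% and 50.5% were positive for the replication genes. Cells positive for replication genes without the mitotic limit made up 7.37%, 2.65% and 7.26% of progenitor-like cells. In myeloid-like cells 11 of 21 positive cells of tumour 1, 1 of 3 in tumour 2 and 4 of 8 in tumour 4 passed it. In oligodendrocyte-like cells 18 of 29 did so in tumour 2 and 5 of 11 in tumour 4.

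The positive myeloid-like cells held less RNA of myeloid markers than the other myeloid-like cells of each tumour. In tumour 1 the 21 positive cells had 12515 CPM of myeloid markers and 2195 CPM of progenitor markers, against 20822 and 1586 CPM in the other 149. In tumour 4 the 8 positive cells had 13439 and 2201 CPM, against 28430.3 and 1561.5 CPM in the other 72. The 3 positive cells of tumour 2 had 34759 CPM of myeloid markers and 27.5 CPM of progenitor markers, with 13 of the 14 at 0, against 39682 and 146 CPM in the other 394. Whether some positive myeloid-like barcodes hold RNA of a second cell was not tested.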

How the data were processed

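Single cells were profiled by droplet 3′ RNA sequencing, 1 library per tumour. The authors deposited raw UMI counts per gene and barcode, and their normalized values were not used here. The submitters' processing notes list Cell Ranger 1.3.0, STAR 2.5.1 and the mouse build mm10, and filters applied before deposit are not given in the sources used here. The tables held 3386, 1632 and 4624 barcodes and 47120617, 15231673 and 53551127 UMIs in tumours 1, 2 and 4. Cells with under 500 genes or over 20% mitochondrial counts were left out.

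Each tumour was clustered alone (scanpy 1.11.5, Leiden at resolution 1, 2000 variable genes, 30 components, 15 neighbours) without the cycling genes. A cluster was named where the mean log2 (CPM + 1) of a marker list exceeded its 10th percentile over clusters by at least 2, with at least 3 markers at 20 CPM or more and no other compartment within 1.5. The naming rule was revised 3 times after marker levels were seen and before values of the 41 genes were examined. Scrublet called 0, 7 and 0 cells, so it is taken not to have worked, and leaving out its 90, 19 and 153 highest scores was an alternative.

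Raw counts were summed per tumour and class or state with at least 30 cells. The sums were tested with edgeR 4.0.16 (quasi-likelihood, TMM, tumour as a block because the classes of a tumour come from the same animal) in R 4.3.3, on genes with at least 50 summed UMIs, with Benjamini-Hochberg adjustment over all of them. DESeq2 1.42.0 was an alternative. edgeR shares its estimate of spread over genes. Its very small p-values for the states rest on that sharing and on tumours 1 and 4, and do not measure the spread between tumours. States and shares used cells thinned to 2500 UMIs, and looser and stricter state limits were alternatives. The fits were also run on simulated sums with the same spread for all genes, which does not address the spread between these tumours. Intervals (exact, 95%) and limits of 3 counts for a 0 cover counting error only.

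The members and lists were chosen with earlier results of these data known. Values per tumour are given for a fixed set of 15 members and for the 3 largest and 3 smallest log2 fold changes of each comparison, with further members named after their values were seen. Cells of 1 tumour are not replicates, so tumours were not tested against each other.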

Additional observations from a re-analysis of the deposited data

How the results depend on the processing

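Without the replicate block, the calls became 0 (progenitor-like over myeloid-like, higher), 0 (progenitor-like over oligodendrocyte-like, higher), 0 (S state over non-cycling, higher), 8 (mitotic state over non-cycling, higher) and 0 (S state over mitotic state, lower). In the same order 5 and 0 of 14262 genes, then 0, 57 and 0 of 12274 genes, were called. The 2 members higher in progenitor-like than in myeloid-like cells became 1 with DESeq2, 6 with no count filter, 1 with the stricter cell filter, 0 at resolution 0.5, 0 at resolution 2, 1 with cycling genes kept in the clustering, and 0 to 6 with 1 tumour left out. With no count filter 1010 of 20544 genes were called higher, with the stricter cell filter 96 of 14026, and with cycling genes kept in 185 of 14118. The 0 over oligodendrocyte-like cells became 1 with DESeq2, 4 with no count filter, 3 with cycling genes kept in and 2 without the highest Scrublet scores. Beside the last 3 of these stood 606 of 20544, 138 of 14118 and 116 of 14233 genes called higher. Leaving out tumour 1 gave 0, beside 15 of 13651 genes. Leaving out tumour 2 or 4 leaves a lone pair, assumed to vary like the other classes, with median log2 fold changes of the members of 0.74 and 0.62. The stricter cell filter left too few oligodendrocyte-like cells in tumour 4 for that comparison. The 37 higher in the S state than in non-cycling cells became 24 with DESeq2 and 4 in all cells outside immune and vascular clusters, where leaving out 1 tumour, chosen after seeing the data, gave 0 to 37. There the 40 higher in the mitotic state became 25 to 40. Over all genes, 0 to 136 were called higher in the first of these ranges and 158 to 1356 in the second. The 24 lower in the S state than in the mitotic state became 8 with DESeq2, 3 at limits of 5 and 10 UMIs, 9 in all those cells, and 2 to 27 with 1 tumour left out there. In all those cells 243 of 12953 genes were called lower, and 50 to 815 with 1 tumour left out. At limits of 5 and 10 UMIs the 0 higher became 6, and 22 of 40 log2 fold changes turned positive; among the members followed singly in every setting, those of E2f1 (1.16), Hells (0.88), Mcm5 (0.27), Pcna (0.17) and Uhrf1 (0.44) did so with a call at one of the limits. The cause was not tested for any of these. Leaving out tumour 2 kept the counts of the progenitor-like states at 37, 40 and 24, and leaving out tumour 1 or 4 leaves 1 tumour with all states and was not fitted. The mean share of positive progenitor-like cells, 21.0%, was 58.3% without thinning, 33.4% at 4000 UMIs, 37.6% at a limit of 3 UMIs and 5.80% at 10 UMIs, and 15.4% to 26.9% with 1 tumour left out. In all, 33 summary values moved and 111 did not. Higher and lower calls were scored apart, and a count of 0 that stayed 0 was scored as unmoved. So were changes within a set factor or, for the share, within the SD over tumours. The 111 are therefore no measure of how firm the counts above are. Of 1037 single values of named members, 915 stayed on the same side of the threshold (43 of them uncalled values that changed sign), 90 lost and 27 gained a call, and 5 changed sign with a call in one of the settings. Depth limits tumour 2 most, where several members rest on a few UMIs.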

Other observations

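Cells outside the classes compared also carried replication RNA. In tumour 2, 48 neuronal-like cells had a summed level of the 41 genes of 1322 CPM, above the 799 CPM of its progenitor-like cells, and 8 of the 48 were positive at 2500 UMIs (16.7%, exact 95% interval 7.48 to 30.2), against 9.27% (5.16 to 15.1) of progenitor-like cells. The 2 intervals overlapped. Dut stood at 210 CPM and E2f1 at 55.2 CPM in the neuronal-like cells, against 75.6 and 8.61 CPM in progenitor-like cells of the same tumour.

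The 271 committed-progenitor-like cells of tumour 2 had a summed level of 432 CPM, and 3 of them were positive (1.11%, 0.229 to 3.20). Cells that stayed unnamed were positive in 16.4% (14.3 to 18.8) in tumour 1, 13.5% (9.09 to 19.0) in tumour 2 and 11.2% (8.60 to 14.2) in tumour 4. These classes were present in too few tumours, or too mixed, for a test.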
